A study of Mus musculus with 38 samples.

Results

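The ribosome biogenesis genes described here are 40 genes whose products act in the nucleolus, on pre-ribosomes or in transcription of ribosomal RNA. They were picked by symbol, and all 40 matched 1 row each among the 21954 genes of the deposited expected count table. All 40 were also among the 13786 genes with enough counts to be tested. Polyadenylated RNA had been sequenced from livers of wild-type female C57BL/6 mice, in 38 libraries that fall into 13 groups. Mice fed ad libitum (AL) gave 3, 2, 3 and 3 libraries at 0, 6, 14 and 22 h, and calorie-restricted (CR) mice gave 2, 3, 3 and 4 at the same times. Fasted (F) mice gave 3 libraries at each of 6, 14 and 22 h, with no fasted group at 0 h. Another 3 libraries were labelled CR fed and 3 CR missed meal, both at zeitgeber time 18 h, a time counted from lights on. The labels give ages of 5 to 44 months that rise from library to library in label order, within groups as well. Whether these are the ages of the mice is uncertain, so they were not used, and if they are, no groups share an age and its effect cannot be told apart from that of the groups. The labels do not state the event from which the other hours count, how much food CR mice received, or that replicates were separate animals. The p-values therefore measure the spread between these samples. Libraries are named by group and replicate number, such as CR_0h 1.

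Ribosomes are built mainly in the nucleolus, where RNA polymerase I makes a long precursor that small nucleolar RNPs modify and nucleases cut into mature rRNAs. Box C/D RNPs guide methylation of the precursor, box H/ACA RNPs guide its pseudouridylation, and the small subunit processome and large subunit assembly factors fold and trim it while ribosomal proteins join. The pathway takes a large part of a growing cell's energy and is known to respond to nutrients through TOR signalling and the transcription factor MYC, which binds E-boxes.

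An E-box of the letters CACGTG, which reads the same on both strands, was searched in the RefSeq windows from 250 bases before to 50 bases after gene starts (GRCm38.p6). The motif was chosen after the levels were seen, and any link between it and the levels was not tested. Of the 35 members with a window, 8 (22.9%) held the motif, beside 1188 of the 10604 tested genes with a window (11.2%). Windows were not given for Bop1, Rrp12, Rrs1, Npm1 and Fbl. The 8 sites follow on the gene's strand, with the motif in capitals.
Wdr43: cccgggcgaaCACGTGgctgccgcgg
Utp18: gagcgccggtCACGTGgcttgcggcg
Utp20: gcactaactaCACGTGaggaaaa
Mybbp1a: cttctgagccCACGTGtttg
Nop2: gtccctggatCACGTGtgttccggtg
Pes1: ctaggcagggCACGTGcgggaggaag
Tsr1: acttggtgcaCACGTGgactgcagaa
Ltv1: cctgtggaccCACGTGtggagctgcc
On the plus strand, these are chr17:71616222-71616247 for Wdr43, chr11:72441357-72441376 for Mybbp1a, chr6:125131813-125131838 for Nop2, chr11:3963967-3963992 for Pes1 and chr11:74898094-74898119 for Tsr1. On the minus strand, they are chr11:93885771-93885796 for Utp18, chr10:88826765-88826787 for Utp20 and chr10:13193094-13193119 for Ltv1. A match describes these letters only, and occupancy by a factor was not measured.

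Library totals lay between 17131292 and 30152277 expected counts. Levels are in CPM, the counts scaled to a common TMM-adjusted library size, and fold changes are log2 differences with standard errors from edgeR. A gene is called where the quasi-likelihood test of edgeR gave a Benjamini-Hochberg adjusted p under 0.05 over all 13786 genes. The 8 hepatocyte markers summed to between 75900 and 184400 CPM per library, so the liver label was met throughout. In bulk tissue, fewer cells of a type and less RNA per cell cannot be told apart. Clock genes of AL_0h 2 and AL_22h 2 went against their times: Dbp stood at 74.1 CPM in AL_0h 2 and at 7.35 and 1.77 in the other AL_0h libraries. CR_6h 3, CR_14h 3, CR_22h 3 and CR_fed 3 correlated better with an AL group (r of 0.894 to 0.905 over the 1000 most variable genes) than with their own (0.812 to 0.849). Most comparisons that include these libraries also have a count without all 6. No such count is given for time within CR, for CR_6h against F_6h or for the F and AL courses. CR_6h 2 likewise correlated better with AL_0h (0.878) than with its own group (0.85), and AL_0h 3 better with CR_0h (0.931) than with its own (0.882). Neither is among the 6, and the counts without each alone are used for them. Exons of 13 members overlap a gene on the opposite strand, by 1240 bases for Tsr1 and Srr and 598 for Noc2l and Samd11, and these libraries do not record strand.

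Per transcript length, the deposited rescaled TPM signal put Npm1, which encodes the histone chaperone nucleophosmin of the nucleolus, at the top of the 40 with a median of 131.7 over the libraries. Ncl, which encodes nucleolin, followed at 53.8, and Utp20 of the small subunit processome was lowest at 2.15. Of the 40 genes, 31 (77.5%) differed somewhere among the 13 groups, beside 52.8% of all genes tested. They included all 6 nucleolar multifunctional genes, all 3 RNA polymerase I genes and all 4 late small subunit genes. Across the 38 libraries, which share groups and scaling, the median Pearson's r between 2 members was 0.417, and 86.3% of the 780 pairs were above 0. The same values for pairs of all genes are not given. Nolc1, Nop2 and Tsr1 followed the mean of the other members most closely (r of 0.947, 0.932 and 0.931), and Nop10 (-0.13), Npm1 (0.034) and Ddx10 (0.050) least. Over all 13 groups, 27 members had their highest mean in CR_0h and 5 in CR_fed. The shares of all genes highest in these groups are not given, and the CR_0h mean rests on 2 libraries.

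The gene of each role with the smallest p over the 13 groups was followed through all of them (edgeR adjusted p of 1.57e-05 for Rrp1b to 0.00321 for Dkc1). Rrp1b averaged 17.1 CPM in CR_0h, and the other 12 group means lay between 4.10 in CR_missed and 7.35 in CR_fed. Nop58 averaged 44.3 CPM in CR_0h, 23.3 in AL_0h and 22.5 in CR_fed, and 12.8 in CR_22h. AL_0h 3 alone reached 35.4 CPM, against 17.2 in AL_0h 1 and in AL_0h 2. Polr1b averaged 29.1 CPM in CR_0h and 18.8 in AL_0h, with the lowest mean, 11.6, in AL_14h.

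Nolc1 averaged 59.0 CPM in CR_0h and 31.2 in CR_fed, and 13.1 in AL_14h. By the ratio of the highest to the lowest group mean, Rrp12 ranged most widely of these 7 genes (6.43), from 20.4 CPM in CR_0h and 13.8 in CR_fed to 3.17 in AL_14h. Dkc1 (chrX:75095854-75109777, plus strand) had the smallest ratio (1.94), from 18.8 CPM in CR_0h to 9.69 in F_14h. Wdr43 differed from the other 6 in its order, since all 3 fasted groups (27.0 to 31.6 CPM) came next after CR_0h (37.2). Its lowest mean was in AL_6h, at 14.4 CPM.

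**Figure D1:**
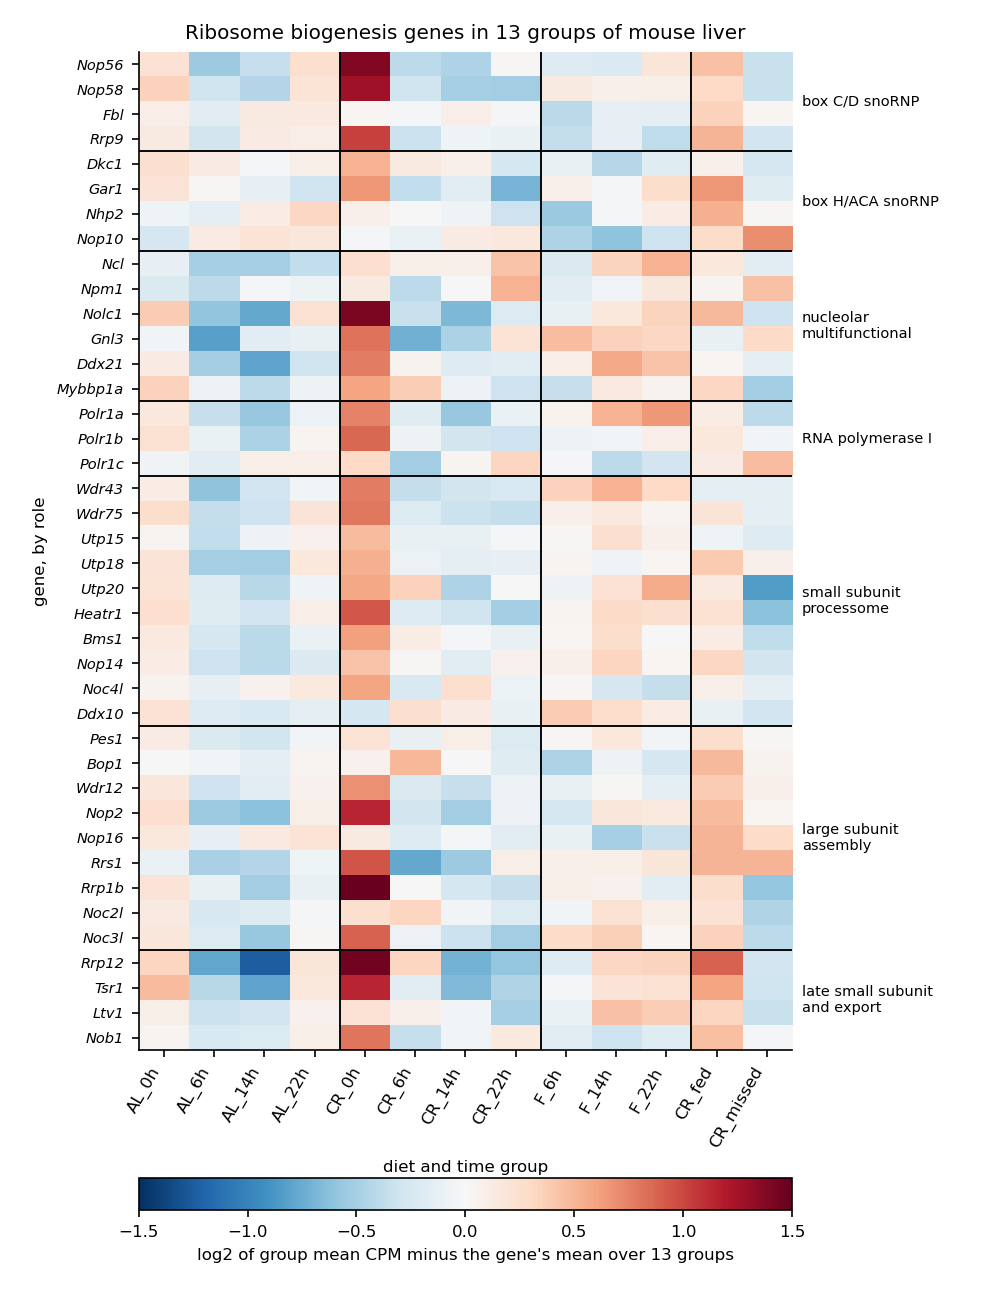
Group means of the 40 ribosome biogenesis genes (rows, by role) in 13 groups (columns), as the log2 of mean CPM minus the gene's mean over the groups. Red is above and blue below the gene's own mean; the CR_0h column is red for most rows, and Ddx10 (8.10 CPM there) is blue.

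Under calorie restriction, most of these genes stood highest at 0 h and lay lower at 6, 14 and 22 h. The test of time within CR called 27 of the 40 (67.5%), beside 20.6% of all genes tested. The highest of the 4 group means was at CR_0h for 32 of 40 members, beside 27.4% of all genes, and for 25 of the 27 called. For 26 of the 40 (65.0%), both CR_0h libraries lay above every other timed CR library, a pattern that 6.56% of all genes showed. The ratio of the highest to the lowest group mean had a median of 1.99 over the 40 and of 2.49 over the called members.

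Rrp1b, whose nucleolar product acts in large subunit assembly (chr17:32036100-32062865, plus strand), had 18.5 and 15.7 CPM in CR_0h. It had 6.12, 6.28 and 5.89 CPM in CR_6h, 3.99, 6.53 and 4.75 in CR_14h, and 4.98, 3.58, 5.51 and 5.24 in CR_22h. No CR_0h library overlapped the later ones (edgeR quasi-likelihood test of time, adjusted p = 1.28e-05). Nop58, a core protein of box C/D RNPs (chr1:59684971-59719044, plus strand), had 44.8 and 43.8 CPM in CR_0h. Its later CR libraries lay between 9.11 and 18.2 CPM, all far below both (adjusted p = 3.23e-05 by the same test). Polr1b, the second largest subunit of RNA polymerase I (chr2:129100995-129126594, plus strand), had 30.6 and 27.6 CPM in CR_0h and between 11.9 and 15.9 later (edgeR adjusted p = 4.85e-05).

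Among the box C/D genes, Nop56 averaged 57.1 CPM in CR_0h and 15.8 in CR_14h, and Rrp9, a protein of the RNP that directs early pre-rRNA cleavage, 13.9 in CR_0h and 5.48 in CR_6h. Fbl, the methyltransferase of these RNPs, was the 1 box C/D gene without a call, with group means within a ratio of 1.09. Of the box H/ACA genes, Dkc1, which encodes the pseudouridine synthase dyskerin (ratio 1.73), and Gar1 (2.53) were called. Nhp2 (1.31) and Nop10 (1.19), the small core proteins of the same RNP, were not.

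All 3 RNA polymerase I genes among the 40 changed over CR time, beside 3 of 18 other genes of that enzyme and its factors (16.7%, under the 20.6% of all genes), and Polr1c, a subunit shared with RNA polymerase III, averaged highest in CR_22h (17.5 CPM) and lowest in CR_6h (9.83). Polr1a, the catalytic subunit, averaged 31.5 CPM in CR_0h and 12.7 in CR_14h. Of the 6 nucleolar multifunctional genes, 5 were called. Nolc1, which encodes the snoRNP chaperone Nopp140 (chr19:46075863-46085530, plus strand), had 59.8 and 58.3 CPM in CR_0h, 20.1, 14.0 and 18.9 in CR_6h, 15.9, 14.9 and 11.0 in CR_14h and 22.8, 23.1, 13.3 and 17.9 in CR_22h. Both CR_0h libraries lay far above every later library.

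The other nucleolar genes called were Gnl3, which encodes the GTPase nucleostemin (ratio 2.89), the helicase gene Ddx21 (1.94), Mybbp1a, whose product binds MYB and sits in the nucleolus (1.88), and Npm1 (1.90). Npm1 differed in its order: it averaged 172.5 CPM in CR_22h and 91.0 in CR_6h. Ncl was not called, with a ratio of 1.28.

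Of 10 small subunit processome genes, 6 were called, each highest in CR_0h: Heatr1 (ratio 2.71), Wdr75 (2.21), Wdr43 (2.18), Utp20 (2.06), Noc4l (1.76) and the GTPase gene Bms1 (1.66). Wdr43, a processome subunit (chr17:71615895-71659031, plus strand), had 39.1 and 35.4 CPM in CR_0h and between 13.5 and 21.1 in the later CR libraries. The groups did not overlap. Utp18, Utp15, Nop14 and Ddx10 were not called, and Ddx10, a helicase gene, had its lowest CR mean at 0 h (8.10 CPM against 11.4 at 6 h).

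Of 9 large subunit genes, Rrp1b (ratio 3.54), Rrs1 (3.27), the rRNA methyltransferase gene Nop2 (3.17), Noc3l (2.65) and Wdr12 (2.05) were called and highest in CR_0h. Wdr12, Pes1 and Bop1 encode the 3 proteins of the PeBoW complex, and Pes1 (1.34) and Bop1 (1.60) were not called. Noc2l and Nop16 were not called either. Of the late small subunit and export genes, Rrp12, Tsr1 (3.52) and the endonuclease gene Nob1 (2.21) were called. Rrp12, which encodes a factor of pre-ribosome export (chr19:41862851-41896173, minus strand), had the largest ratio of the 40, at 4.45, with 17.6 and 23.2 CPM in CR_0h and between 2.81 and 12.1 later. Ltv1, whose product is released from the late small subunit, was not called (1.65). The count over CR time rests on 0 h: without that time it was 5 of 40, beside 11.1% of all genes, and it was 19 without CR_0h 1. Over CR time 1 of 10 Kupffer, 1 of 10 sinusoidal endothelial and 1 of 10 stellate markers were called and none of 8 hepatocyte markers, and CR_0h held the highest CR mean of 9 Kupffer and 7 endothelial markers. Their part in the result was not tested.

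**Figure D2:**
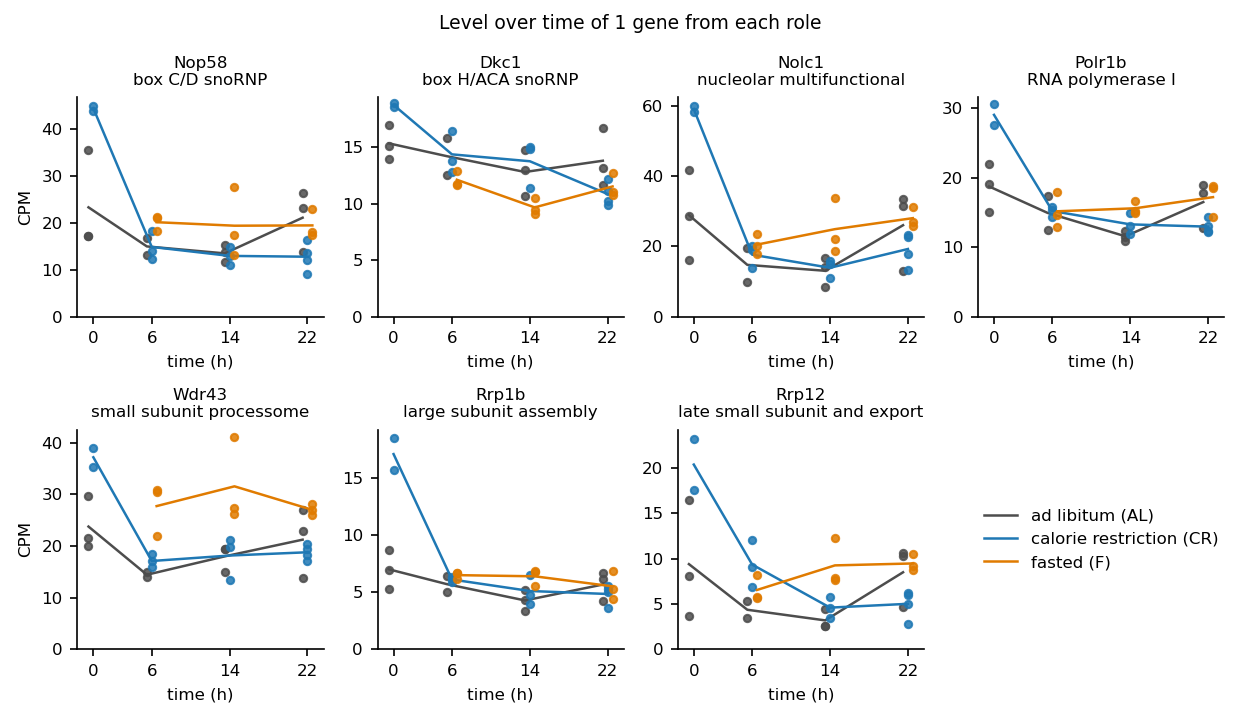
CPM (y axis) against labelled time in h (x axis) for the gene of each role with the smallest p over the 13 groups; points are libraries, lines join group means, and AL and F points are shifted sideways for sight. The 2 CR_0h libraries lie above every later CR library in each of the 7 panels.

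Comparison of CR with AL at 0 h addresses whether that level differs between diets, and here most differences did not pass the test. Of the 40 genes, 1 was higher in CR_0h and none lower, beside 0.479% of all genes called and 0.21% called higher. Rrp1b had 18.5 and 15.7 CPM in CR_0h and 6.97, 5.29 and 8.72 in AL_0h. The groups did not overlap, and it rose by 1.29 ± 0.26 (edgeR adjusted p = 0.0151). The median fold change of the 40 was 0.49 and that of all genes -0.01, with 37 of 40 above 0, and 21 members had an unadjusted p under 0.05. Nop56, not called, averaged 57.1 ± 3.80 CPM (SD, n = 2) in CR_0h and 25.3 ± 11.5 (SD, n = 3) in AL_0h. All 10 sinusoidal endothelial markers (median 0.40) and all 5 erythroid markers (median 1.05) were above 0 too, none called. Endothelial markers summed to 322.9 and 350.8 CPM in CR_0h and 209.0 to 279.5 in AL_0h, and their part in the result was not tested. The AL_0h libraries differed widely: the mean log2 deviation of the 40 genes from their means was 0.087, -0.20 and 0.48 in AL_0h 1, 2 and 3, against 0.61 and 0.72 in CR_0h. The count was 9 without AL_0h 3, the library that resembled CR_0h, and 0 without any 1 of the other 4 libraries, or without the 6 libraries that stood apart.

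At later times CR and AL livers did not differ in any member by the edgeR test, although counts without doubtful libraries were higher. At 6 h 0 of all genes were called (0.0%), and 3 members had an unadjusted p under 0.05. At 14 h 0.0218% of genes were called and again 3 members passed unadjusted. DESeq2 and limma also called no member at these times. At 22 h 4.88% of genes were called and no member, with a median of -0.19 over the 40 and 12 with an unadjusted p under 0.05. DESeq2 and limma called 1 there, and 6 were called without the 6 libraries. The difference of the CR and AL courses over time called no member, beside 0.442% of genes, with 11 unadjusted, 3 by DESeq2 and 1 by limma. The larger CR course is thus not shown to differ from that of AL.

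Within AL, the test of time called no member, beside 0.276% of genes, but 15 had an unadjusted p under 0.05, DESeq2 called 5 and limma none. AL_0h held the highest group mean for 28 of 40 (24.3% of all genes), and for no member did every AL_0h library exceed every later one (0.718% of all genes). Without the 2 libraries of deviant clock genes 12 members were called within AL. The share of all genes called in that fit is not given, and these libraries were picked after the data were seen. Rrp12 ranged most widely, with 8.09, 3.61 and 16.5 CPM in AL_0h, 5.27 and 3.42 in AL_6h, 4.39, 2.56 and 2.56 in AL_14h and 10.6, 4.61 and 10.3 in AL_22h. The lower values at 0 and 22 h came from AL_0h 2 and AL_22h 2. Within F, from 6 to 22 h, no member was called by edgeR, DESeq2 or limma, beside 2.86% of genes, and 3 had an unadjusted p under 0.05.

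**Figure D3:**
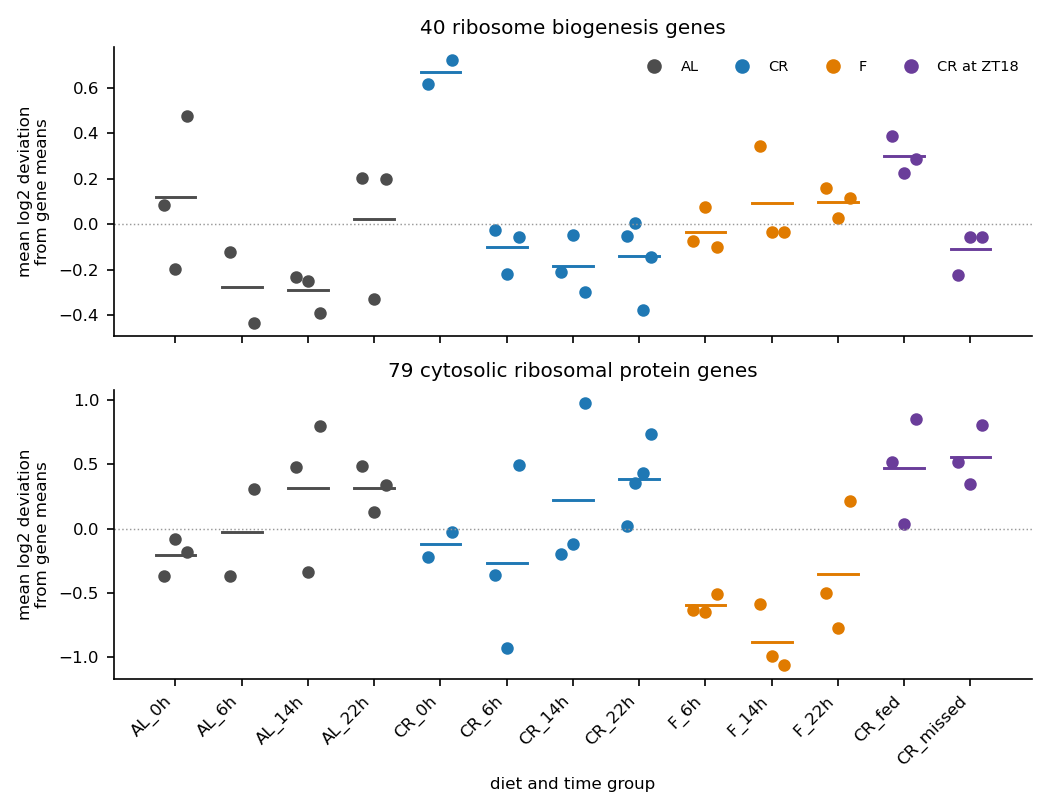
Mean log2 deviation from each gene's mean over 38 libraries (y axis), for the 40 ribosome biogenesis genes and for 79 cytosolic ribosomal protein genes; points are libraries and bars group means. The 40 genes are highest in CR_0h (0.61 and 0.72), and the group mean of the ribosomal protein genes is lowest in F_14h (-1.06 to -0.59).

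At zeitgeber time 18 h, CR livers after a missed meal had lower levels of several of these genes than fed CR livers. Of the 40, 9 fell and none rose, beside 12.5% of all genes called and 6.13% called lower. The median over the 40 was -0.44 and over all genes -0.01, and 35 of 40 lay below 0. The largest share was in the late small subunit group, where 3 of 4 fell, followed by 3 of 9 large subunit genes, 2 of 10 processome genes and 1 of 6 nucleolar genes. No box C/D, box H/ACA or RNA polymerase I gene was called. The late small subunit calls were not stable when 1 library was left out. Of 6 such fits, Rrp12, Tsr1 and the large subunit gene Noc3l were called in 0 and Ltv1 in 1.

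Utp20, a large scaffold protein of the processome, had 14.8, 14.6 and 14.3 CPM in CR_fed and 6.02, 8.18 and 7.88 in CR_missed. Every missed-meal library was lower, and the change was -0.98 ± 0.23 (edgeR adjusted p = 0.00558). Mybbp1a had 57.0, 63.6 and 70.3 CPM in CR_fed and 28.0, 37.7 and 41.1 in CR_missed, without overlap. It changed by -0.84 ± 0.21 (edgeR adjusted p = 0.00918). Noc2l, which encodes a nucleolar factor of large subunit assembly, had 32.7, 33.0 and 36.3 CPM in CR_fed and 22.4, 23.8 and 18.0 in CR_missed. These groups did not overlap either, and the change was -0.67 ± 0.17 (edgeR adjusted p = 0.01004).

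The other called genes were Rrp12 (-1.18 ± 0.37), Tsr1, which encodes a GTPase-like factor of the late small subunit (-0.89 ± 0.28), Rrp1b (-0.84 ± 0.24), Heatr1 (-0.84 ± 0.23), Noc3l (-0.73 ± 0.24) and Ltv1 (-0.65 ± 0.22). Rrp12 had 14.6, 14.0 and 12.97 CPM in CR_fed and 6.13, 5.83 and 6.42 in CR_missed. Nolc1 (32.4, 35.4 and 25.9 against 17.8, 16.4 and 19.4) was not called although its libraries did not overlap. Nop10, Npm1, Gnl3 and Polr1c had fold changes of 0.35 to 0.43, none called, and Wdr43 had 20.0 CPM in both groups.

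Leaving out 1 library lowered the count to 7 (CR_fed 3), 5 (CR_fed 1 or CR_missed 2), 3 (CR_fed 2 or CR_missed 3) or 2 (CR_missed 1). Without all 6 libraries that stood apart, CR_fed 3 among them, the count was 12. The rest of these 6 are in neither group, so leaving them out changed only the shared spread and the scaling. In the same comparison 4 of 10 sinusoidal endothelial markers and 4 of 5 erythroid markers were higher in CR_missed, none at 0 in every library. Erythroid markers summed to 947.1 to 2342 CPM in CR_fed and 4670 to 14420 in CR_missed, and endothelial markers to 182.4 to 212.6 and 286.6 to 324.3. Their part in the result was not tested.

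**Figure D4:**
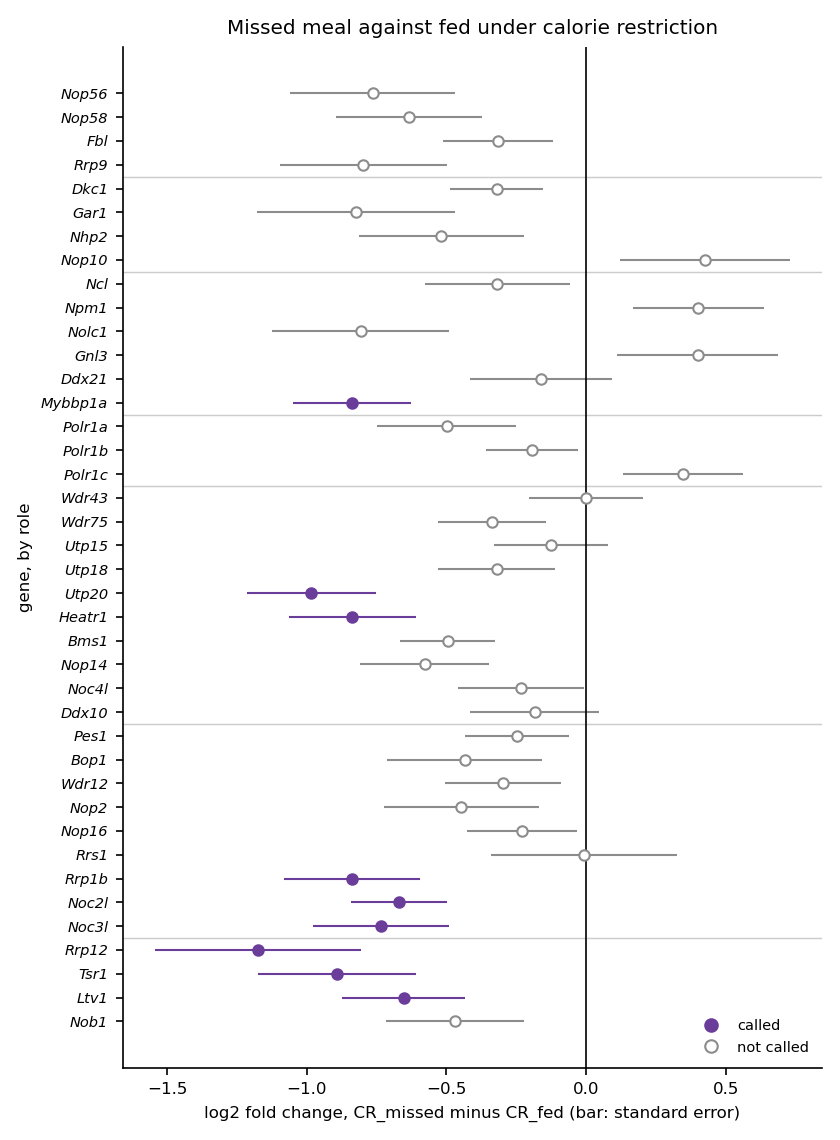
Log2 fold change of the 40 genes between CR_missed and CR_fed (x axis, bars are standard errors; rows are genes by role). The 9 filled points are the called genes, all below 0, and 4 uncalled genes lie between 0.35 and 0.43.

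Fasted and AL livers were compared at 3 times, and the members differed mostly at 14 h. At 6 h 2 members were higher and none lower, beside 2.34% of all genes called and 1.2% called higher. Wdr43 had 30.4, 30.8 and 22.0 CPM in F_6h and 14.9 and 13.9 in AL_6h. The groups did not overlap, and it rose by 0.94 ± 0.23 (edgeR adjusted p = 0.0250). Gnl3 had 31.8, 35.0 and 25.9 CPM in F_6h and 12.3 and 13.4 in AL_6h, again without overlap. Its rise was 1.27 ± 0.34 (edgeR adjusted p = 0.0379). The count was 0 without AL_6h 1, AL_6h 2, F_6h 1 or F_6h 2.

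At 14 h 14 of the 40 were called, 13 higher and 1 lower in F_14h, beside 24.5% of all genes called, 11.8% higher and 12.7% lower. The median was 0.48 over the 40 and -0.04 over all genes. Ddx21, a helicase gene of the nucleolus, had 68.8, 47.1 and 53.7 CPM in F_14h and 19.7, 28.0 and 18.9 in AL_14h. All fasted libraries were higher, by 1.35 ± 0.26 (edgeR adjusted p = 0.000477). Polr1a had 34.9, 23.9 and 22.2 CPM in F_14h and 14.4, 14.8 and 8.78 in AL_14h, without overlap. It rose by 1.09 ± 0.25 (edgeR adjusted p = 0.00236). Rrp12 had 12.3, 7.62 and 7.85 CPM in F_14h and 4.39, 2.56 and 2.56 in AL_14h, all higher when fasted. Its rise was 1.54 ± 0.38 (edgeR adjusted p = 0.00426).

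The other members that rose were Tsr1 (0.98 ± 0.29), Nolc1 (0.93 ± 0.32), Noc3l (0.93 ± 0.25), Ncl (0.84 ± 0.26), Wdr43 (0.81 ± 0.21), Nop2 (0.79 ± 0.28), Ltv1 (0.73 ± 0.22), Nop14 (0.72 ± 0.23), Bms1 (0.67 ± 0.17) and Utp20 (0.64 ± 0.23), whose libraries overlapped. Nop16, whose product joins the early large subunit, fell by 0.64, with 16.1, 13.8 and 15.4 CPM in F_14h and 29.3, 19.7 and 21.8 in AL_14h. None of the 8 snoRNP protein genes was called, and Dkc1 (-0.40 ± 0.17) and Nop10 (-0.80 ± 0.31) lay below 0.

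These fold changes went with transcript length. Length was read as the expected count per unit of signal, relative to the median gene, and Spearman's rho between length and fold change was 0.744 across the 40 members and 0.453 across all genes, which are not independent replicates. With that trend taken out of every library, 7 of the 40 were called, all higher, beside 15.0% of all genes, and Ncl, Nolc1, Polr1a, Utp20, Bms1, Nop2, Nop16 and Noc3l no longer were. Leaving out AL_14h 1 gave 9, and leaving out AL_14h 3 or F_14h 1 gave 6. Leaving out the 6 libraries that stood apart gave 20. None of these 6 is in F_14h or AL_14h, so only the shared spread and the scaling changed. Of 10 sinusoidal endothelial markers 7 were higher in F_14h, with sums of 285.9 to 349.4 CPM against 88.7 to 205.3 in AL_14h. Of 6 pancreatic acinar markers 2 were called higher, but their list summed high in F_14h 1 only. Acinar sums were 23.5, 4.3 and 3.7 CPM in F_14h and 7.0, 9.5 and 17.1 in AL_14h. No marker of these lists was at 0 in every library, and their part in the result was not tested.

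**Figure D5:**
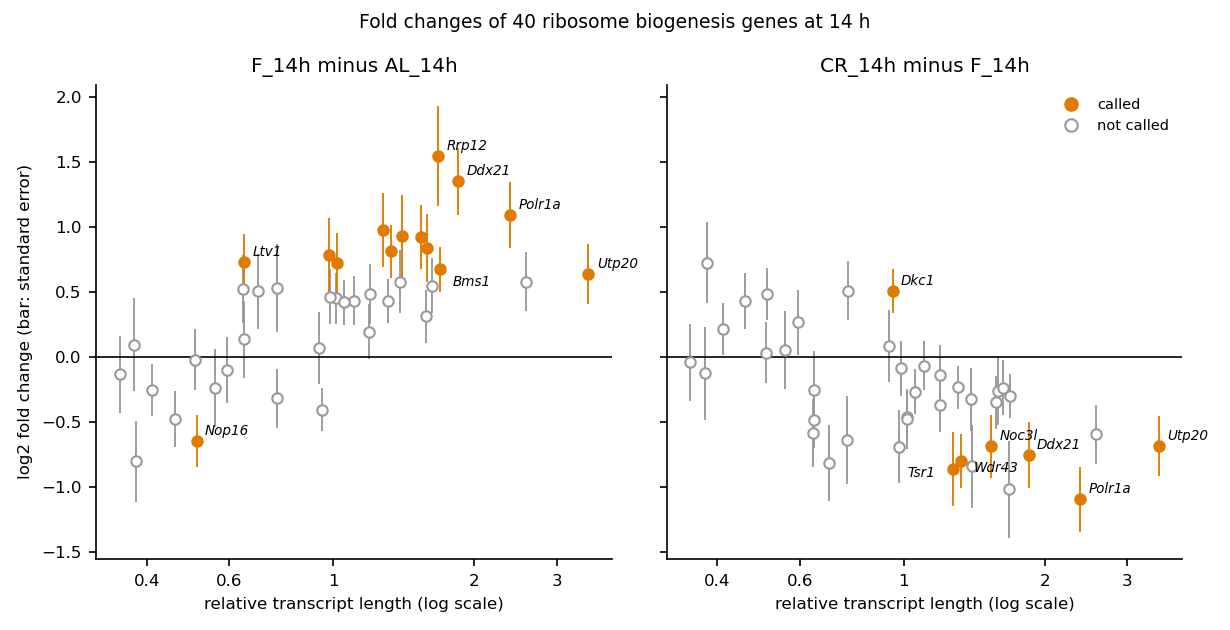
Log2 fold change at 14 h (y axis, bars are standard errors) against relative transcript length (x axis, log scale, 1 is the median gene) for the 40 genes, as F_14h minus AL_14h and CR_14h minus F_14h. Filled points are called, named where there is room; longer transcripts lie higher in the first panel (rho of 0.744) and lower in the second (-0.62). The panels share the F_14h libraries.

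At 22 h Ncl was the 1 member called, beside 11.5% of all genes called and 6.06% called higher. Ncl, one of the most abundant nucleolar proteins, had 217.3, 230.4 and 176.0 CPM in F_22h and 121.9, 91.5 and 123.4 in AL_22h. The groups did not overlap, and it rose by 0.89 ± 0.26 (edgeR adjusted p = 0.0250). The median over the 40 was 0.05. The call was lost without AL_22h 1, AL_22h 2, F_22h 1 or F_22h 2 and with the length trend removed. The difference of the F and AL courses over time called no member by edgeR, DESeq2 or limma, beside 0.0653% of genes, and 2 members had an unadjusted p under 0.05.

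Each CR group was next set against the fasted group of its hour, and these comparisons share the fasted libraries of those with AL. At 6 h 4 members were called, 2 higher and 2 lower in CR_6h, beside 6.8% of all genes called, 3.39% higher and 3.41% lower. Gnl3 had 14.8, 9.91 and 16.3 CPM in CR_6h and 31.8, 35.0 and 25.9 in F_6h. It was lower in every CR library, by -1.18 ± 0.29 (edgeR adjusted p = 0.0124). Bop1, a scaffold of the PeBoW complex, had 39.0, 41.1 and 31.6 CPM in CR_6h and 19.9, 19.7 and 17.7 in F_6h. It was higher in every CR library, by 0.96 ± 0.28 (edgeR adjusted p = 0.0313). Wdr43 had 18.4, 17.0 and 15.9 CPM in CR_6h and 30.4, 30.8 and 22.0 in F_6h, without overlap. It changed by -0.70 ± 0.20 (edgeR adjusted p = 0.0332), and Mybbp1a was higher by 0.72 ± 0.21. The count was 0 without CR_6h 2, 1 without CR_6h 1, F_6h 1 or F_6h 2, and 2 without CR_6h 3 or F_6h 3. Mybbp1a and Wdr43 were not called without the 4 libraries CR_6h 3, CR_14h 3, CR_22h 3 and CR_fed 3.

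At 14 h 7 members were called, 1 higher and 6 lower in CR_14h, beside 17.1% of all genes called, 9.1% higher and 7.97% lower. Polr1a had 12.99, 14.0 and 10.9 CPM in CR_14h and 34.9, 23.9 and 22.2 in F_14h. The groups did not overlap, and it changed by -1.09 ± 0.25 (edgeR adjusted p = 0.00312). Wdr43 had 21.1, 19.8 and 13.5 CPM in CR_14h and 41.2, 26.1 and 27.4 in F_14h, again without overlap. Its change was -0.80 ± 0.20 (edgeR adjusted p = 0.00706). Dkc1 had 15.1, 14.9 and 11.4 CPM in CR_14h and 9.44, 9.10 and 10.5 in F_14h. This box H/ACA gene was the 1 member higher in CR_14h, by 0.51 ± 0.17 (edgeR adjusted p = 0.0335).

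Tsr1 (-0.86), Ddx21 (-0.75), Noc3l (-0.69) and Utp20 (-0.69) were the other members lower at 14 h. With the length trend removed 4 of 40 were called, beside 13.3% of all genes. The count was 4 without CR_14h 2, 2 without CR_14h 3 and 1 without F_14h 1, and 5 without the 6 libraries. Between CR_14h and F_14h 2 of 10 sinusoidal endothelial and 2 of 6 pancreatic acinar markers were lower and 2 of 8 hepatocyte markers higher. Endothelial sums were 225.7 to 304.7 CPM against 285.9 to 349.4. Acinar sums were 2.7, 3.9 and 16.8 CPM in CR_14h and 23.5, 4.3 and 3.7 in F_14h. The part of these markers in the result was not tested. At 22 h 3 members were lower and none higher in CR_22h, beside 9.44% of all genes called and 4.32% called lower. Ltv1 had 9.91, 10.8, 5.88 and 7.50 CPM in CR_22h and 17.9, 13.9 and 14.9 in F_22h. The groups did not overlap, and it changed by -0.87 ± 0.20 (edgeR adjusted p = 0.00616).

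Heatr1, which encodes a processome protein needed for RNA polymerase I transcription, had 12.2, 7.98, 15.3 and 9.27 CPM in CR_22h and 22.8, 16.2 and 17.6 in F_22h. The highest CR library lay just below the lowest fasted one, and the change was -0.75 ± 0.21 (edgeR adjusted p = 0.0210). Polr1a had 19.3, 16.3, 16.8 and 17.9 CPM in CR_22h and 30.7, 34.2 and 23.7 in F_22h, without overlap. It changed by -0.75 ± 0.23 (edgeR adjusted p = 0.0353). The count was 1 without CR_22h 2 or CR_22h 4, 0 without F_22h 1, and 6 without the 6 libraries. Fold changes between CR_22h and F_22h went with transcript length too (rho of -0.48 across the 40 members and -0.27 across all genes). With the length trend removed, Heatr1 and Polr1a were no longer called, while Ltv1 was.

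Over the 11 pairs of groups, Wdr43 was called in 4, Polr1a, Utp20, Tsr1, Noc3l and Ltv1 in 3 each, and 19 members in none. The 19 included Nop56, Nop58 and Polr1b, whose ratios of highest to lowest CR group mean were 3.62, 3.47 and 2.24. The shares of all genes called in as many pairs, or in none, are not given. Many pairs share a group and its libraries, so calls of a gene in several pairs are not independent of each other.

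Of other genes of the pathway, 141 were tested on 5 lists. The test of time within CR called 61 of them (43.3%), beside 20.6% of all genes, and 45 of the 61 had their highest mean in CR_0h. The lists differed: 28 of 54 large subunit and 20 of 44 small subunit genes were called, but 3 of 18 RNA polymerase I and 4 of 13 exosome genes. Of 12 genes of the MYC network and RNA polymerase III control 6 were called, and 1 of these was highest in CR_0h. Gtpbp4, which encodes a GTPase of large subunit assembly, averaged 76.5 CPM in CR_0h and 20.7 in CR_6h (edgeR adjusted p = 3.94e-06). Wdr3 of the processome and Lsg1, a GTPase gene of late large subunit release, were also highest in CR_0h, at 23.9 and 35.1 CPM. Maf1, a repressor of RNA polymerase III, went the other way, with 7.73 CPM in CR_0h and 30.5 in CR_14h.

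Between CR_missed and CR_fed, 16 of the 141 fell and 5 rose, which is 14.9%, beside 12.5% of all genes called and 6.13% called lower. Rcl1, a processome gene, rose (1.25 ± 0.24), while the exosome genes Mphosph6 (-1.63 ± 0.35) and Exosc10 (-0.82 ± 0.20) and Nol12 (-0.88 ± 0.21) fell. Between F_14h and AL_14h 20 rose and 12 fell (22.7%, beside 24.5% of all genes). Nol8 (1.27 ± 0.23), Nol6 (1.06 ± 0.20) and the exosome helicase gene Skiv2l2 (0.90 ± 0.18) rose, and the exosome gene Exosc8 changed by -1.45 ± 0.28.

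Between CR_0h and AL_0h 2 of the 141 rose, Gtpbp4 (1.18 ± 0.24) and Lsg1 (0.80 ± 0.17), and none fell, which is 1.42% beside 0.479% of all genes. In CR_22h against F_22h 9 were lower and 2 higher (7.8%, beside 9.44% of all genes), and in CR_14h against F_14h 11 were lower and 5 higher (11.3%, beside 17.1%). Nol8, lower in CR_14h by -1.29 ± 0.23, was among them.

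In fasting against AL, most of the 79 cytosolic ribosomal protein genes, whose products the biogenesis factors assemble with rRNA, lay below 0. Most members lay above 0 at 6 and 14 h, but at 22 h 23 of 40 did, with a median of 0.05. Between F_14h and AL_14h 67 of the 79 fell and none rose, with a median of -1.25. Their median relative length was 0.231, against 1.01 for the 40 members, and no count with the length trend removed is given for them. Their mean log2 deviation was -0.335 in AL_14h 2, against 0.481 and 0.799 in AL_14h 1 and 3. Between CR_14h and F_14h 58 rose and none fell, with a median of 1.17. Neither the missed meal (0 called, median 0.13, and 0 with an unadjusted p under 0.05) nor CR time (1 called) moved many of them, and none had its highest CR mean at 0 h.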

How the data were processed

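Polyadenylated liver RNA was sequenced in non-directional libraries, per the labels' protocols. The authors aligned reads with Bowtie to GRCm38 protein-coding genes, allowing 2 mismatches, and estimated expected counts with RSEM 1.2.3, per the labels. A further deposited table gives a signal per gene, which is TPM that the authors rescaled between libraries.

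Expected counts were rounded, filtered (filterByExpr), TMM-scaled and tested with the quasi-likelihood test of edgeR 4.0.16 (R 4.3.3) in 1 model of 13 groups, with Benjamini-Hochberg adjustment over 13786 genes and a threshold of 0.05. The fit was tested on simulated data. Totals were 17131292 to 30152277 counts per library, which set the counting error. Alternatives were DESeq2 1.42.0 (its test or its size factors), limma 3.58.1 on log2 of the signal plus 1 or 0.1, no filter, only the compared libraries, a lowess length offset (span 0.3), a replicate block and leaving out libraries or times. In the fits that leave 1 library in a group, that library is assumed to vary like the other groups.

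Members and lists were chosen with earlier results of these data known. Values of every library are given for the 3 called members with the smallest p in each comparison. Each role's member with the smallest p over the 13 groups was followed through all groups, and up to 4 genes of the other pathway lists were named per comparison. Same-numbered libraries deviated together only for the CR missed and CR fed groups (r of 0.144 to 0.200, against a mean of -0.083 for other numbers). No batch was used, since the labels speak of one as possible without naming it.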

Additional observations from a re-analysis of the deposited data

Results flagged for a closer look

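In the 1 group of 4 libraries, CR_22h, each of the 40 members was checked for a library far from the others, by its gap to the nearest library over the whole range on the log2 CPM scale, against Dixon's critical value for 4 samples. Ddx21 in CR_22h 3 stood apart with 0.899 of the range, at 22.3 CPM against 37.1, 39.2 and 39.0 in the other libraries. Tsr1 in the same library stood apart with 0.849, and Utp15 in CR_22h 1 with 0.890. On CPM itself the ratio for Tsr1 was 0.827, just under the critical value. Chance flags about 1 in 20 of such checks, and 3 of the 40 members were flagged here. CR_22h 3 was also 1 of the 5 CR libraries that correlated better with an AL group than with their own.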

How the results depend on the processing

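Values are counts of the 40 members called, and no called fold change reversed under any alternative. The share of all genes called is not given beside these counts. Pairs are named with the first group against the second. DESeq2's test gave 4 for F_22h and AL_22h, 3 for CR_0h and AL_0h, 1 for CR_22h and AL_22h, 5 for CR_22h and F_22h, 5 for time in AL and 3 for the CR and AL courses. DESeq2's size factors gave 2 for F_22h and AL_22h. limma on log2(signal + 1) gave 1 for CR_22h and AL_22h, 4 for CR_14h and F_14h and 1 for the CR and AL courses, and with a pseudocount of 0.1 it gave 1 and 4 for these pairs. Unfiltered limma gave 1 for F_6h and AL_6h, 9 for F_14h and AL_14h, 1 for CR_6h and F_6h, 2 for CR_14h and F_14h and 1 for the CR and AL courses. Only the compared libraries, which are fewer, gave 3 for F_22h and AL_22h, 0 for CR_0h and AL_0h, 2 for CR_14h and F_14h, 0 for CR_22h and F_22h and 1 for time in F. The length trend removed gave 7 for F_14h and AL_14h, 0 for F_22h and AL_22h, 2 for CR_22h and AL_22h and 4 for CR_14h and F_14h. Apart from fits with fewer libraries, the cause was not tested.

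The replicate block, where only numbers were shared, gave 2 for F_22h and AL_22h, 2 for CR_0h and AL_0h and 1 for CR_22h and AL_22h. For CR_missed and CR_fed, the 1 pair whose numbers paired libraries, the block gave 10 against 9 called without it.

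Alternatives chosen after seeing the data left out libraries or times. Some left-out libraries are in neither group of a pair, such as the clock libraries for CR_22h and F_22h. The compared libraries are then unchanged, and only the shared spread and the scaling differ. Without the 2 clock libraries, counts were 0 for F_22h and AL_22h, 0 for CR_0h and AL_0h, 2 for CR_22h and AL_22h, 8 for CR_22h and F_22h, 12 for time in AL and 1 for the CR and AL courses. Without the 4 diet libraries they were 4 for F_22h and AL_22h, 1 for CR_14h and AL_14h, 3 for CR_22h and AL_22h and 2 for CR_14h and F_14h. Without all 6 they were 2 for F_22h and AL_22h, 0 for CR_0h and AL_0h, 1 for CR_6h and AL_6h, 1 for CR_14h and AL_14h, 6 for CR_22h and AL_22h, 6 for CR_22h and F_22h, 14 for time in AL and 1 for the CR and AL courses. Time in CR without 0 h gave 5.

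Leaving out 1 library gave 0 to 2 for F_6h and AL_6h, 6 to 15 for F_14h and AL_14h, 0 to 2 for F_22h and AL_22h, 0 to 9 for CR_0h and AL_0h, 0 to 2 for CR_22h and AL_22h, 0 to 2 for CR_6h and F_6h, 1 to 8 for CR_14h and F_14h, 0 to 4 for CR_22h and F_22h, 2 to 7 for CR_missed and CR_fed, 0 to 6 for time in AL, 19 to 30 for time in CR and 0 to 3 for the CR and AL courses. The others stayed at 0. In the leave-one-out fits, Noc3l, Rrp12 and Tsr1 were each lost in all 6 for the missed meal. Ltv1 was called in 1 of the 6 and Utp20 in all 6. What depth limits was not tested. The 4 members of lowest signal per transcript length, Utp20, Rrp1b, Rrp12 and Noc3l, were each called in 2 or 3 pairs. The order by counts differs: Utp20 had a median of 13.1 CPM. Gar1 was lowest at 3.54 CPM, and neither Gar1 nor Rrp9 (6.44 CPM) was called in any pair.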
